A study of Mus musculus with 14 samples.

Results

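The 10 genes described here encode glutathione transferases and enzymes that make, use or break down glutathione, and they were read in whole mouse ileum, the end section of the small intestine. They are Gsta1, Gsta2, Gsta3, Gsta4, Gstm1, Gstm3, Gstp1, Gclc, Gpx2 and Ggt1, 10 of the 46855 genes of the deposited expression table, taken by symbol, and all 10 were found. They were chosen by their TPM in these same libraries, in both comparisons below, so their own values are a description and carry no test. Tests are given for other genes of the pathway, 71 in each comparison.

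The study measured RNA in 14 ileum libraries of wild-type C57BL/6N mice, an inbred strain, and addressed what changes in the tissue with weaning and with interleukin-22 (IL-22), a cytokine that acts on epithelial cells. In one comparison, 3 mice given recombinant mouse IL-22 (rmIl22) were set against 3 given phosphate-buffered saline (PBS). Injections went into the peritoneum at postnatal days 14 and 15, with 100 µL holding 0.1 µg of rmIl22 per g of weight, and the ileum was taken at day 16. In the other comparison, 4 untreated weaned mice of day 24 (P24) were set against 4 untreated suckling mice of day 14 (P14). The labels contradict this in their age field, where rmIl22 mice have day 24 and PBS mice day 14, and groups follow the sample titles.

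Glutathione is a small peptide that cells use to neutralise oxidants and reactive chemicals. Glutamate-cysteine ligase, whose catalytic subunit is Gclc, performs the rate-limiting step of its synthesis. Glutathione transferases, grouped into classes such as alpha (Gsta), mu (Gstm) and pi (Gstp), join it to electrophilic compounds. Glutathione peroxidases such as the gut enzyme Gpx2 spend it on peroxides, and the membrane enzyme gamma-glutamyl transferase (Ggt1) starts its breakdown outside the cell. In the small intestine, the transferases meet compounds taken in with food.

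The libraries held 35.6 to 46.5 M reads assigned to genes (median 42.7 M). Of 6 genes checked for a response to IL-22, 4 were called higher in rmIl22 ileum (Saa1, Reg3g, Nos2 and Fut2), and Reg3b and Socs3 were not (adjusted p = 0.107 and 0.681, limma). Xist, the RNA of the inactive X chromosome, was above 1 TPM in 2 of 3 rmIl22, 0 of 3 PBS, 3 of 4 P24 and 2 of 4 P14 libraries, so mice of both sexes were unevenly spread. The epithelial markers of ileum were present in every library, with a summed level of 7 enterocyte markers of 6249 to 7309 TPM in rmIl22, 7505 to 8516 TPM in PBS, 6341 to 8408 TPM in P24 and 4952 to 6560 TPM in P14 ileum. Libraries 1 and 2 of the rmIl22 group stood apart, on opposite sides: their 5 smooth muscle markers summed to 2862 and 845 TPM, with 1527 TPM in rmIl22 library 3, against 1436 to 1837 TPM in PBS libraries. Library 2 was also far below libraries 1 and 3 in goblet cell markers (6444 TPM, against 10971 and 11050 TPM) and fibroblast markers (271 TPM, against 558 and 598 TPM). In neuron and glia markers it was the highest (45.9 TPM, against 38.9 and 34.1 TPM). The log2 fold changes of the members in rmIl22 against PBS are therefore also given without library 1 and without library 2. Without library 1 and without library 2 they were -5.35 and -5.36 for Gsta2, -2.37 and -2.11 for Gsta3, and -1.25 and -1.18 for Gclc, and those of the other 7 stand beside their levels. In whole tissue, fewer cells of a type and less RNA per cell cannot be told apart.

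Among the transferases, alpha-class genes had the widest differences. Gsta2 and Gsta1 lie 88.3 kb apart on chromosome 9 (mm10) and point towards each other. Their promoters are shown because the sequences are closely alike while the genes differed in opposite directions at P24, as given below. The windows run from 250 bases before to 50 bases after the transcript start (RefSeq, GRCm38.p6), and capitals mark runs of at least 8 bases that are identical between both after alignment. The Gsta1 window is chr9:78230419-78230718 on the plus strand and the Gsta2 window is chr9:78347096-78347395 on the minus strand. The Gsta2 window lies inside the gene as annotated by GENCODE (78331018 to 78355788). It therefore does not cover the outermost annotated start of that gene.
Gsta1: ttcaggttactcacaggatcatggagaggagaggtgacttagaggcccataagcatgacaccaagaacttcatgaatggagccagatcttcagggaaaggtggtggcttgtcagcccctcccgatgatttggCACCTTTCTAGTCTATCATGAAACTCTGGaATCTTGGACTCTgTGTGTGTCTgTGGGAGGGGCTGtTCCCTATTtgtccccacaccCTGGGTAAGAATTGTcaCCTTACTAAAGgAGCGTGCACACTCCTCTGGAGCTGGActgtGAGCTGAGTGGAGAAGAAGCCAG
Gsta2: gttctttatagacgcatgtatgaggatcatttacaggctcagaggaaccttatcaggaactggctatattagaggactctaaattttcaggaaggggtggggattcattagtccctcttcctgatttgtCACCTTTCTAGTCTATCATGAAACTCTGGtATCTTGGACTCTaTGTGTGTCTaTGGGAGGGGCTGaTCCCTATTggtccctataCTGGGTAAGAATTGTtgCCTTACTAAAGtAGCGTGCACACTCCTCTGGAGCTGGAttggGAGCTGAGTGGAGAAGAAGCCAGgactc
Of the 284 aligned bases, 83.8% were identical, and 145 bases stood in such runs. The runs all lie in the downstream part of the windows.

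Gsta2 (ENSMUSG00000057933.10, chromosome 9, 78331018 to 78355788, minus strand, protein coding) encodes an alpha-class transferase. It was at 0.489, 0.508 and 1.01 TPM in rmIl22 libraries 1 to 3, against 47.1, 71.2 and 101 TPM in PBS libraries 1 to 3. TPM is a transcript level scaled for gene length and library size. The groups were far apart, and the rmIl22 mean was 0.913% of the PBS mean. The log2 fold change of TPM + 1 was -5.42 (SE 0.27, n = 3 each). At P24, Gsta2 was at 0.106, 0.0951, 0.112 and 0.120 TPM in libraries 1, 2, 6 and 8, against 9.52, 27.3, 43.9 and 32.5 TPM in P14 libraries 1, 2, 4 and 5. The P24 libraries held 2 to 3 reads each, 11 in all (95% Poisson interval 5.49 to 19.7, counting error only), and the P14 libraries 2983. P14 ileum held 246 times as many Gsta2 reads as P24 ileum at equal depth. The interval of 137 to 493 is on pooled reads and again holds counting error only, so the spread between mice is left out of it. The fitted log2 fold change of -4.54 (SE 0.34, n = 4 each) understates this, since TPM + 1 flattens levels under 1 TPM. Gsta2 passed the filter on low values through the PBS and P14 libraries, in which it is high, and of the others only rmIl22 library 3 reached 1 TPM.

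Gsta1 (ENSMUSG00000074183.3, chromosome 9, 78230656 to 78242684, plus strand, protein coding), also of the alpha class, was at 13.8, 2.14 and 6.45 TPM in rmIl22 libraries, against 11.2, 19.2 and 15.6 TPM in PBS libraries. These groups overlapped through rmIl22 library 1. The log2 fold change was -1.19 (SE 0.51), and it was -1.73 (SE 0.37) without rmIl22 library 1 and -0.61 (SE 0.30) without library 2. The P24 libraries had 46.6, 27.7, 33.3 and 52.0 TPM, against 12.5, 19.6, 14.9 and 12.7 TPM in P14 libraries. Every P24 library was above every P14 library, with a log2 fold change of 1.34 (SE 0.20). The 2 alpha-class neighbours therefore stood in opposite order at P24. Near copies limit the Gsta1 level: 90.5% of the 50-base windows of its annotated transcripts also occur in other genes, 75.7% in Gm3776, and for Gsta2 the shares are 49.8% and, with Gsta1, 36.0%. Gm3776 has no entry of its own in the deposited expression table, so its level is not known here. How the authors' counting split such reads is not given in the sources used here. Gm10639, another near copy with 98.2% of its aligned promoter bases identical to Gsta1, had 6.04 to 13.6 TPM at P24, against 2.09 to 3.33 TPM at P14 (log2 fold change 1.47, adjusted p = 8.5e-05, limma).

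Gsta3 (ENSMUSG00000025934.15, chromosome 1, 21240589 to 21265661, plus strand, protein coding), an alpha-class enzyme known in the mouse for conjugating aflatoxin epoxide, was lower in rmIl22 than in PBS ileum and lower at P24 than at P14, as Gsta2 was. It was at 4.77, 2.97 and 3.00 TPM in rmIl22 libraries, against 17.9, 19.4 and 21.9 TPM in PBS libraries (log2 fold change -2.20, SE 0.18). It was at 2.26, 1.57, 1.74 and 2.48 TPM at P24, against 14.7, 25.3, 24.4 and 24.0 TPM at P14 (log2 fold change -2.92, SE 0.17). Neither pair of groups overlapped, and the level at P24 was 9.12% of that at P14. Unlike Gsta1 and Gsta2, Gsta3 shares almost none of its windows with other genes (0.273%). Its promoter (chr1:21240335-21240634, plus strand, RefSeq, GRCm38.p6) is shown because it holds the core of the antioxidant response element, the site class of the factor NRF2, in capitals.
Gsta3: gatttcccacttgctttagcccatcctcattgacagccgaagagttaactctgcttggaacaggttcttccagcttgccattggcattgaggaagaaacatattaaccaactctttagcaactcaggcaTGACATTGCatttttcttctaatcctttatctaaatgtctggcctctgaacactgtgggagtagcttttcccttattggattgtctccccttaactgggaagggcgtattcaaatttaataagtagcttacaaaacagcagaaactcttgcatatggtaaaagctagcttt
The core was searched as TGACNNNGC on both strands, and it begins 121 bases before the start. It was in 12.4% of 32851 promoter windows of the same length, and in 4 of the 12 windows of the 8 members that have one, 1 of Gsta3 and 3 of Ggt1. A STAT site searched as TTCNNNGAA was in 8.30% of all windows and in 1 of the 12, that of Gsta1. Gsta4 and Gclc had no window.

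Gsta4 (ENSMUSG00000032348.6, chromosome 9, 78182774 to 78209349, plus strand, protein coding) encodes the alpha enzyme known for conjugating 4-hydroxynonenal, a product of lipid peroxidation. It was at 38.3, 4.11 and 20.6 TPM in rmIl22 libraries, against 16.1, 13.6 and 18.6 TPM in PBS libraries. The rmIl22 libraries lay on both sides of the PBS range, and the log2 fold change of -0.06 (SE 0.66) became -0.69 (SE 0.53) without rmIl22 library 1, 0.78 (SE 0.25) without library 2 and -0.26 (SE 0.76) without library 3. The mean was the higher one in rmIl22 ileum (21.0 ± 17.1 TPM, against 16.1 ± 2.50 TPM in PBS ileum, SD), so mean and log2 fold change differ in sign. At P24 it was at 22.3, 20.3, 25.1 and 38.7 TPM, against 15.2, 15.8, 13.0 and 14.4 TPM at P14. All P24 libraries lay above all P14 libraries (log2 fold change 0.78, SE 0.17).

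The makeup of the alpha class differed between the groups of both comparisons. The 4 genes summed to 32.7 ± 23.9 TPM in rmIl22 ileum, against 124 ± 32.6 TPM in PBS ileum (SD, n = 3 each). The sum was 57.4, 9.73 and 31.0 TPM in rmIl22 libraries 1 to 3, so library 2 was far below the other two. Gsta2 made up 0.851, 5.22 and 3.24% of the sum in these libraries, against 51.0 to 64.3% in PBS libraries. The sum was 68.6 ± 18.7 TPM at P24 and 79.9 ± 19.4 TPM at P14 (SD, n = 4 each), ranges that overlap. Within it, Gsta2 made up 0.129 to 0.192% at P24 and 18.3 to 45.6% at P14, and Gsta3 made up 2.66 to 3.17% at P24 and 25.3 to 28.7% at P14. Gsta1 made up 55.2 to 65.4% of the sum at P24 and 15.2 to 24.0% at P14. In rmIl22 ileum the leading member was Gsta4, at 66.7, 42.3 and 66.3% in libraries 1 to 3, while Gsta1 was at 20.8 to 24.1%. The 2 states with little Gsta2 thus held a different leading alpha-class gene.

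**Figure D1:**
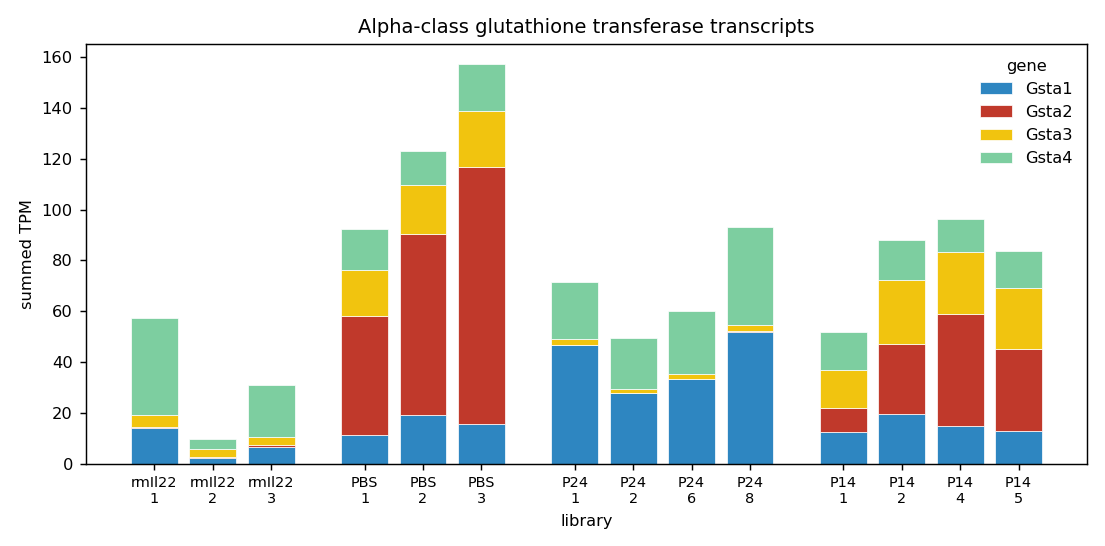
Summed TPM of Gsta1, Gsta2, Gsta3 and Gsta4, stacked by gene, in each of the 14 libraries, with the library number under its group. The Gsta2 segment makes up 51.0 to 64.3% of the PBS bars and at most 5.22% of any rmIl22 bar, and at P24 the Gsta1 segment is the tallest in all 4 libraries.

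The mu class was split. Gstm3 (ENSMUSG00000004038.9, chromosome 3, 107963696 to 107969283, minus strand, protein coding) was at 9.47, 1.94 and 3.65 TPM in rmIl22 libraries, against 19.1, 22.4 and 29.1 TPM in PBS libraries. Every rmIl22 library was below every PBS library (log2 fold change -2.21, SE 0.43). It was -2.71 (SE 0.25) without rmIl22 library 1 and -1.79 (SE 0.32) without library 2. Levels were 6.40, 5.29, 4.67 and 5.77 TPM at P24, against 4.06, 9.35, 15.9 and 18.2 TPM at P14. P14 library 1 lay below the whole P24 range, so those groups overlapped (log2 fold change -0.81, SE 0.33).

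Gstm1 (ENSMUSG00000058135.12, chromosome 3, 108012255 to 108017973, minus strand, protein coding), a widely expressed mu enzyme 43.0 kb from Gstm3, was at 37.7, 9.71 and 19.3 TPM in rmIl22 libraries, against 18.9, 16.3 and 25.5 TPM in PBS libraries. Its log2 fold change was -0.04 (SE 0.43), and it was -0.50 (SE 0.30) without rmIl22 library 1 and 0.43 (SE 0.28) without library 2. At P24 it was at 19.9, 17.9, 19.5 and 22.8 TPM, against 21.8, 22.1, 31.2 and 20.5 TPM at P14 (log2 fold change -0.23, SE 0.13). Both pairs of groups overlapped, and the P24 value turned to 0.04 when TPM were scaled to the median gene. Gstm1 and Gsta4 were highest in rmIl22 library 1 and lowest in library 2, which is the order of the summed smooth muscle markers. Gsta1, Gsta3, Gstm3, Gstp1 and Ggt1 had the same order. How many of all genes share it was not counted, so nothing is read from the number of members. For Gsta3 libraries 2 and 3 were nearly equal. None of the 5 muscle markers was called in rmIl22 against PBS, and the part of muscle in these levels was not tested. Other genes hold 18.9% of the Gstm1 windows and 28.8% of the Gstm3 windows, so reads of both are uncertain to that extent.

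Gstp1 (ENSMUSG00000060803.6, chromosome 19, 4035407 to 4037985, minus strand, protein coding), the pi-class enzyme, was the most abundant of the 7 transferases among the members in all 4 groups. It was at 257, 160 and 193 TPM in rmIl22 libraries, against 225, 261 and 301 TPM in PBS libraries, with overlap (log2 fold change -0.38, SE 0.20). It was -0.57 (SE 0.17) without rmIl22 library 1 and -0.23 (SE 0.17) without library 2. It was at 296, 239, 245 and 243 TPM at P24, against 169, 197, 217 and 197 TPM at P14, with no overlap (log2 fold change 0.39, SE 0.11). The shift of the median gene was -0.25 in that comparison, and scaled to the median gene the Gstp1 value was 0.67. Its neighbour Gstp2, 2.30 kb away, shares 33.7% of the Gstp1 windows and had 87.5% of aligned promoter bases in common with it. Gstp2 is no member and was tested: it fell to 34.3 ± 3.57 TPM at P24, against 85.9 ± 17.4 TPM at P14 (SD, n = 4 each, log2 fold change -1.28, adjusted p = 1.6e-05, limma).

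Gclc (ENSMUSG00000032350.9, chromosome 9, 77754535 to 77794485, plus strand, protein coding), the synthesis enzyme, was lower in both comparisons and by like amounts. It was at 28.8, 25.8 and 23.0 TPM in rmIl22 libraries, against 53.5, 79.5 and 49.4 TPM in PBS libraries (log2 fold change -1.18, SE 0.19). In the age comparison it was at 26.8, 28.2, 24.2 and 28.8 TPM at P24, against 41.5, 74.5, 89.4 and 58.2 TPM at P14 (log2 fold change -1.21, SE 0.19). Neither pair of groups overlapped. The rmIl22 and P24 libraries overlapped each other, as did PBS and P14 libraries, and the levels within rmIl22 and P24 groups varied little. Gclc shares no window with another gene.

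Gclc, Gsta4, Gsta1 and Gsta2 lie within 601 kb of chromosome 9, although they did not share a direction at P24. Of the 23 other genes annotated between them, 6 had an entry in the deposited expression table that reached 1 TPM in at least 1 library. Gm3776 lies there too but has no entry, so it was not measured. Fbxo9, a ubiquitin ligase subunit, and the kinase gene Ick differed at P24 from P14 by log2 fold changes of 0.11 and 0.02 (adjusted p = 0.265 and 0.884, limma). Scaled to the median gene, their log2 fold changes were 0.39 and 0.28. Elovl5, a fatty acid elongase, fell at P24 by 0.42 on the log2 scale (adjusted p = 0.0127), and its log2 fold change was -0.15 when scaled to the median gene. The long noncoding RNA gene C920006O11Rik fell by 0.55 (adjusted p = 0.00637), and its log2 fold change was -0.38 when scaled to the median gene. Rn7sk was at -0.49 (adjusted p = 0.0945), and at -0.21 when scaled to the median gene. Its levels were 71473 to 96140 TPM at P24, against 107287 to 145318 TPM at P14. The sixth is the near copy Gm10639, given above. These neighbours were looked up after the values of the members were seen.

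Gpx2 (ENSMUSG00000042808.8, chromosome 12, 76792333 to 76795554, minus strand, protein coding), the peroxidase of the gut epithelium, was by mean level the most abundant member at P24 and in rmIl22 ileum. It was at 263, 517 and 165 TPM in rmIl22 libraries, against 93.2, 195 and 90.2 TPM in PBS libraries. With Gstp1 at 257, 160 and 193 TPM in rmIl22 libraries, Gpx2 was close to it in library 1 and below it in library 3. The Gpx2 levels of rmIl22 and PBS ileum overlapped, since PBS library 2 exceeded rmIl22 library 3 (log2 fold change 1.25, SE 0.45). It was 1.30 (SE 0.52) without rmIl22 library 1 and 0.82 (SE 0.34) without library 2. At P24 it was at 623, 949, 886 and 788 TPM, against 47.6, 68.1, 53.3 and 60.3 TPM at P14. The P24 mean was 14.2 times the P14 mean (log2 fold change 3.79, SE 0.15). Windows shared with the pseudogene Gpx2-ps1 made up 5.97%, and that pseudogene was at no more than 0.739 TPM in any library.

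Ggt1 (ENSMUSG00000006345.10, chromosome 10, 75561604 to 75586200, plus strand, protein coding), the breakdown enzyme, had the largest difference upwards of the 10 members. It was at 76.6, 23.0 and 54.7 TPM in rmIl22 libraries, against 4.16, 5.50 and 4.80 TPM in PBS libraries. The rmIl22 mean was 10.7 times the PBS mean (log2 fold change 3.02, SE 0.39). It was 2.66 (SE 0.33) without rmIl22 library 1 and 3.50 (SE 0.17) without library 2. At P24 it was at 278, 283, 262 and 203 TPM, against 1.57, 2.43, 2.58 and 2.82 TPM at P14. The P24 mean was 109 times the P14 mean (log2 fold change 6.27, SE 0.14). Neither pair of groups overlapped, and none of its windows occurs in another gene. The 4 groups took the order P24, rmIl22, PBS and P14 with no overlap between neighbours. For Gpx2 that order was the same, with overlap between rmIl22 and PBS.

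**Figure D2:**
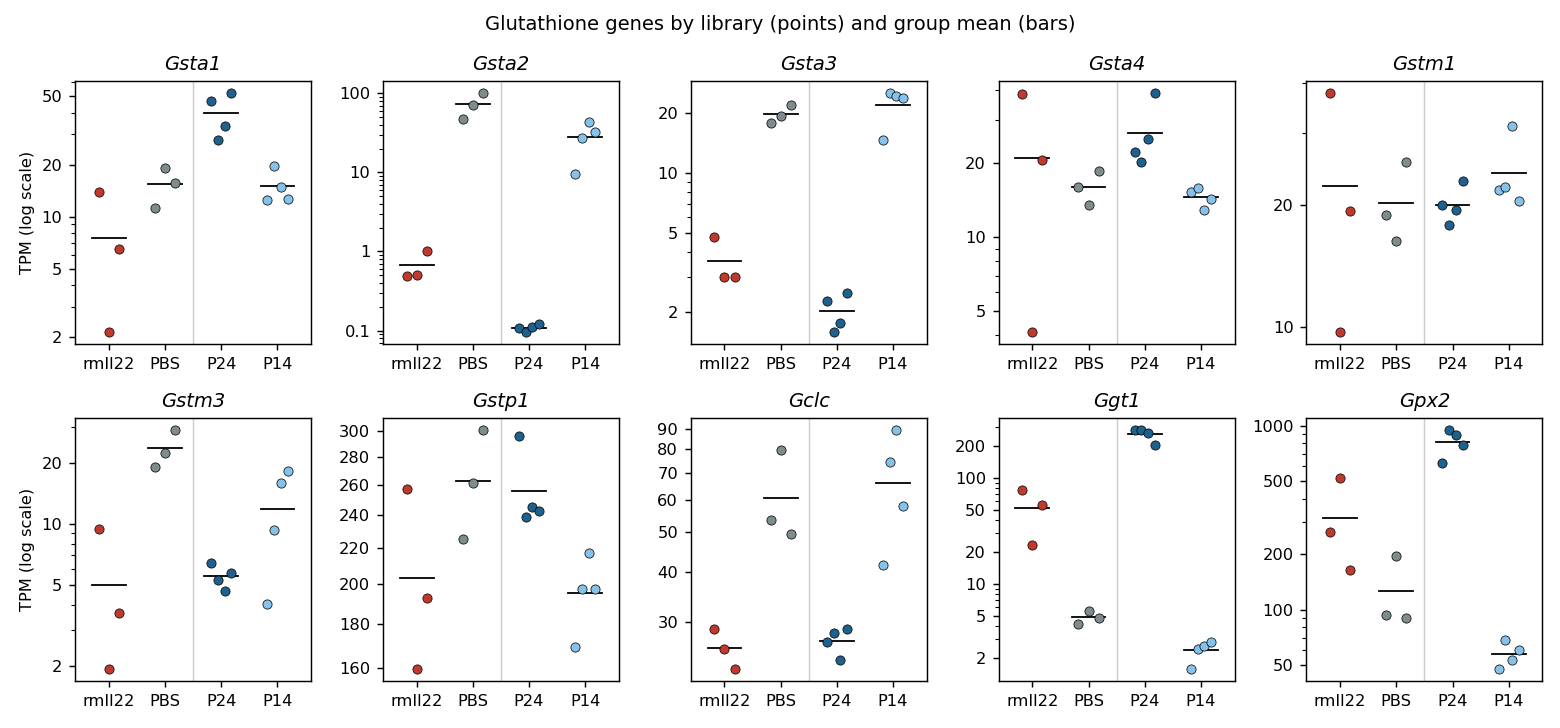
TPM of the 10 members in each library (points, log scale with its own range per panel) and the group mean (bars), with rmIl22 left of PBS and P24 left of P14. Gsta2 is under 1.1 TPM in all rmIl22 and P24 libraries and above 9 TPM in all PBS and P14 libraries, and Ggt1 is above 20 TPM in the first pair of groups and under 6 TPM in the second.

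The controls of both comparisons were not alike for every member. Gsta2 was at 73.1 ± 27.1 TPM in PBS ileum (SD, n = 3), against 28.3 ± 14.3 TPM at P14 (SD, n = 4), with no overlap. Gstm3, Gstp1, Gpx2 and Ggt1 were also higher in PBS with no overlap. How many of all genes were so placed was not counted, so nothing is read from the number of members. PBS mice were 2 days older and had been injected, and these cannot be told apart. Xist was above 1 TPM in 0 of 3 PBS and 2 of 4 P14 libraries, and the part of sex was not tested. By mean level, the most abundant member was Gpx2 in rmIl22 and P24 ileum and Gstp1 in PBS and P14 ileum. In rmIl22 library 3, Gstp1 was above Gpx2. Ggt1 ranked 3 of 10 in rmIl22, 10 in PBS, 2 in P24 and 10 in P14 ileum, while Gsta2 ranked 10 in rmIl22 and P24, 3 in PBS and 4 in P14 ileum.

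Read against all genes, the members were counted at an adjusted p under 0.05 in the limma fit of the whole table, where a gene past that threshold is termed called. In rmIl22 against PBS, 1 member was higher (Ggt1) and 4 were lower (Gsta2, Gsta3, Gstm3 and Gclc), where 0.443% and 2.25% of 14456 genes were called. In P24 against P14, 5 were higher (Gsta1, Gsta4, Gstp1, Gpx2 and Ggt1) and 3 lower (Gsta2, Gsta3 and Gclc), where 14.6% and 43.7% of 14651 genes were called. Groups did not overlap for 1 member above and 4 below in rmIl22 against PBS, beside 5.62% and 15.4% of all genes. They did not overlap for 5 above and 3 below in P24 against P14, beside 13.0% and 39.4% of all genes. Since these contrasts chose the members, nothing is read from these counts. The median log2 fold change was -0.78 for the members and -0.05 for all genes in rmIl22 against PBS, and 0.08 and -0.25 in P24 against P14. Scaled to the median gene, P24 against P14 had 28.1% of genes called higher and 29.8% lower, and the members' counts were again 5 and 3. With a term for Xist above 1 TPM, which leaves rmIl22 library 1 to be set against PBS, log2 fold changes in rmIl22 against PBS were -0.11 for Gsta1, -1.21 for Gstm3, 1.21 for Gsta4 and 0.89 for Gstm1. The part of sex in the unadjusted values cannot be told apart from that of rmIl22 in libraries 2 and 3.

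**Figure D3:**
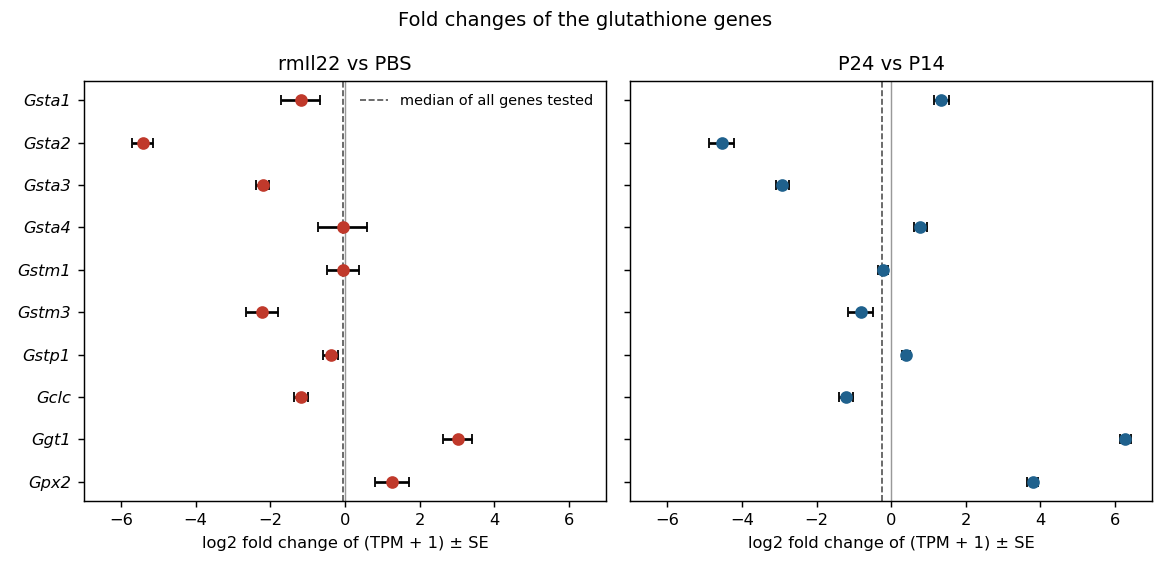
Log2 fold change of TPM + 1 (points) with its SE (bars) for the 10 members, rmIl22 over PBS on the left and P24 over P14 on the right, and the median of all genes tested as a broken line. Gsta2, Gsta3 and Gclc lie left of 0 and Ggt1 and Gpx2 right of 0 in both panels, whereas Gsta1 is at -1.19 on the left and 1.34 on the right.

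The authors' deposited table for rmIl22 against PBS lists 5 of the members, and its highest adjusted p is 0.00999. The authors' deposited table gives log2 fold changes of -6.73 for Gsta2, -2.43 for Gsta3, -2.22 for Gstm3, -1.21 for Gclc and 3.41 for Ggt1. For P24 against P14, the authors' deposited table lists all 10, with -7.68 for Gsta2, -3.14 for Gsta3, -0.95 for Gclc, 1.73 for Gsta1, 1.16 for Gsta4, 0.71 for Gstp1, 4.14 for Gpx2 and 7.09 for Ggt1. Gstm1 and Gstm3 were at 0.07 and -0.80 in the authors' deposited table (adjusted p = 0.862 and 0.187).

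Among 81 other genes of glutathione handling, in 6 lists, 80 were in the table and 71 could be tested. In rmIl22 against PBS, 0 rose and 7 fell: the transferases Gstp2 and Hpgds, the synthesis enzyme Gss, the export pump Abcc2 and the antioxidant targets Me1, Hmox1 and Ugdh. At an unadjusted p under 0.05 (limma), 1 was higher and 21 were lower. The share of all genes at that threshold was not counted, so nothing is read from these counts. Limma voom on recovered reads called 0 higher and 6 lower, where 0.56% and 1.6% of all genes were called. The 7 that fell were 9.86% of the 71, where 2.25% of all genes were called lower. The median log2 fold change of the 71 was -0.14, against -0.05 for all genes. Abcc2, which pumps glutathione conjugates across the apical membrane, fell to 64.8 ± 8.33 TPM in rmIl22 ileum, against 172 ± 11.3 TPM in PBS ileum (SD, n = 3 each, log2 fold change -1.40 with SE 0.13, adjusted p = 0.00769, limma). Gss, which completes glutathione, fell to 68.2 ± 5.71 TPM in rmIl22 ileum, against 118 ± 3.85 TPM in PBS ileum (log2 fold change -0.78, adjusted p = 0.0174). The other 5 had log2 fold changes from -1.44 (Me1, malic enzyme, adjusted p = 0.0273) to -0.96 (Ugdh, UDP-glucose dehydrogenase, adjusted p = 0.0201). Gclm, the modifier subunit that pairs with Gclc, had a log2 fold change of -0.70 (adjusted p = 0.191). These 7 calls depend on single libraries. The number that fell was 12 without rmIl22 library 2 (with 2 that rose), 2 without rmIl22 library 1 and 1 without rmIl22 library 3, and it was 2 without PBS library 2 and 0 without PBS library 1 or 3.

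In P24 against P14, 22 of the 71 rose and 32 fell, and 26 rose and 22 fell when TPM were scaled to the median gene. The risers were 31.0% of the 71, where 14.6% of all genes were called higher, and the fallers 45.1%, where 43.7% were called lower. Scaled to the median gene these shares were 36.6% and 31.0%, where 28.1% of all genes were called higher and 29.8% lower, so the share that fell was near that of all genes on both scales. The median log2 fold change of the 71 was -0.19, against -0.25 for all genes. Of 18 other transferases tested, 2 rose and 11 fell (11.1% and 61.1%), and 3 rose and 8 fell when scaled to the median gene (16.7% and 44.4%). Hpgds, the haematopoietic prostaglandin D synthase of the sigma class, fell to 1.25 ± 0.212 TPM at P24, against 25.8 ± 3.28 TPM at P14 (SD, n = 4 each, log2 fold change -3.57 with SE 0.12, adjusted p = 6.5e-10, limma). Gstm4 and Gstp2 fell by 1.82 and 1.28 on the log2 scale, and the membrane-bound Mgst3 and Mgst2 rose by 1.09 and 0.58. Of 4 synthesis and cysteine supply genes, 1 rose and 3 fell, and 1 rose and 2 fell when scaled to the median gene. Gss fell to 33.4 ± 3.08 TPM at P24, against 106 ± 11.2 TPM at P14 (log2 fold change -1.64, adjusted p = 1.48e-07), and Gclm and the transporter subunit Slc3a2 fell by 1.28 and 0.64. The Slc3a2 call was lost when scaled to the median gene (adjusted p = 0.0617). The riser was Cth, which makes cysteine, by 0.40 (adjusted p = 0.0482), a call lost without P14 library 1 or 5 and without P24 library 1, 6 or 8 (adjusted p from 0.0665 to 0.113).

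Of 11 peroxidases, reductase and glutaredoxins, 2 rose and 7 fell at P24 (18.2% and 63.6%, beside 14.6% and 43.7% of all genes). Scaled to the median gene, 2 rose and 5 fell (18.2% and 45.5%, beside 28.1% and 29.8%). Gpx3, the secreted peroxidase, fell to 24.8 ± 3.25 TPM at P24, against 2259 ± 385 TPM at P14 (SD, n = 4 each, log2 fold change -6.45 with SE 0.14, adjusted p = 2.87e-11, limma), while the member Gpx2 was higher at P24. Gpx7 and Gpx4 fell by 0.73 and 0.69. Gsr, which regenerates reduced glutathione, rose by 1.22 and Prdx6 by 0.39, a call lost in 1 fit of all 14 libraries (adjusted p = 0.172). Of 11 breakdown genes, 6 rose and 3 fell (54.5% and 27.3%), and 6 rose and 2 fell when scaled to the median gene (54.5% and 18.2%). The membrane dipeptidase Dpep1, which cleaves the product of Ggt1, rose to 690 ± 84.1 TPM at P24, against 17.8 ± 4.02 TPM at P14 (log2 fold change 5.22 with SE 0.15, adjusted p = 2.23e-10), and the aminopeptidases Anpep and Lap3 rose by 3.23 and 0.68. Oplah (5-oxoprolinase), Ggt5 and Ggact fell by 1.18, 0.58 and 0.30. The Ggact call was lost without P14 library 2 or 4 and without P24 library 2 or 6 (adjusted p from 0.056 to 0.0815), and its change was -0.03 when scaled to the median gene and -0.05 in limma voom on recovered reads.

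Of 9 genes for export and mercapturate formation, 2 rose and 2 fell at P24 (22.2% each, beside 14.6% and 43.7% of all genes). Scaled to the median gene, 4 rose and 1 fell (44.4% and 11.1%, beside 28.1% and 29.8%). Abcc2 fell to 16.2 ± 3.93 TPM at P24, against 213 ± 59.9 TPM at P14 (SD, n = 4 each, log2 fold change -3.62 with SE 0.22, adjusted p = 9.4e-08, limma), and Nat8 fell by 0.52, a call lost when scaled to the median gene (adjusted p = 0.0799) and in limma voom on recovered reads (adjusted p = 0.06). The basolateral pump Abcc3 rose by 1.60 and Acy1 by 1.02. Of 18 NRF2 and other antioxidant targets, 9 rose and 6 fell (50.0% and 33.3%), and 10 rose and 4 fell when scaled to the median gene (55.6% and 22.2%). Prdx1, Osgin1 and Txn1 led the rises, by 0.88, 0.83 and 0.81, and Hmox1, Cbr3 and Ugdh the falls, by 3.04, 1.44 and 1.20. Hmox1 is heme oxygenase, a gene also strong in macrophages, whose 5 markers summed to 124 to 171 TPM at P24 and 173 to 208 TPM at P14, and to 178 to 225 TPM in rmIl22 and 231 to 282 TPM in PBS ileum. Of these 5, 2 fell at P24 and 1 in rmIl22 ileum, and the part of macrophages in the fall of Hmox1 was not tested. The 6 Paneth cell markers rose at P24, all 6 of 6, to a sum of 22489 to 23574 TPM, against 4052 to 6102 TPM at P14. All 5 neuron and glia markers fell, to a sum of 8.44 to 12.8 TPM at P24, against 37.3 to 51.2 TPM at P14. Of fibroblast and of endothelium markers, 4 of 5 each fell and 0 rose, while 3 of 6 goblet cell markers rose and 0 fell. The part of these cell types in any of these results was not tested.

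**Figure D4:**
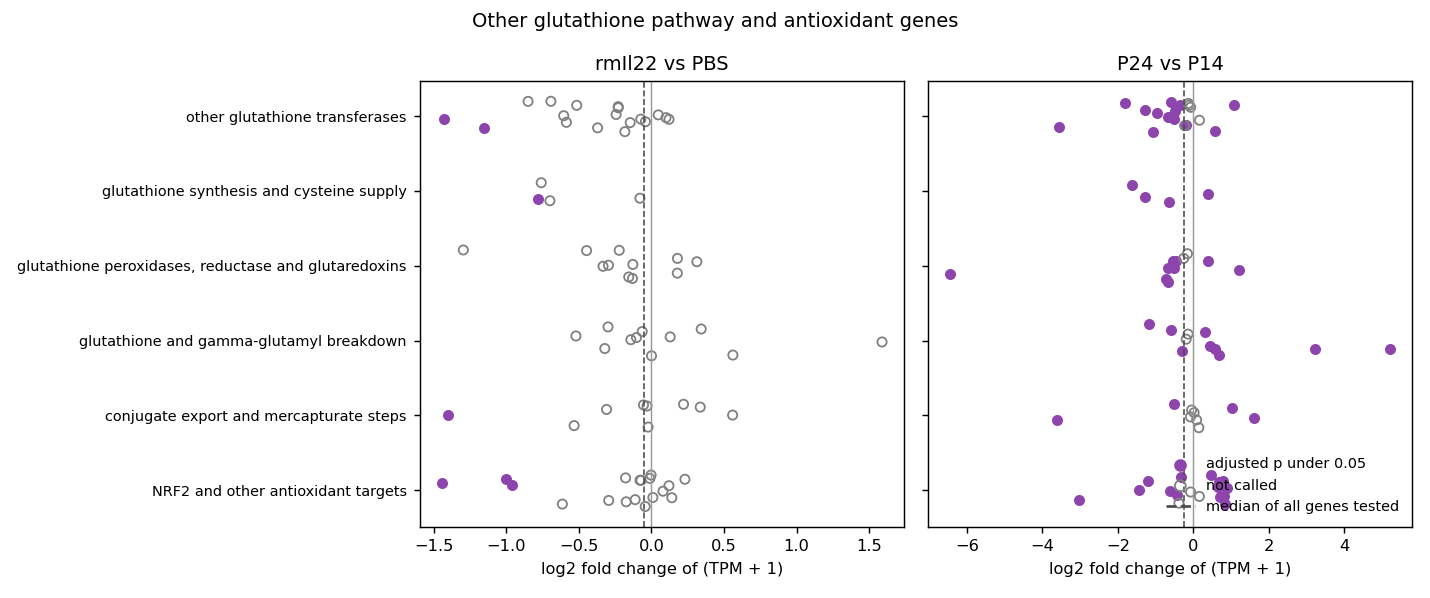
Log2 fold change of TPM + 1 of the tested genes of 6 glutathione and antioxidant lists (1 point per gene, filled where the adjusted p was under 0.05, open where not), rmIl22 over PBS on the left and P24 over P14 on the right, with different horizontal ranges and the median of all genes as a broken line. The 7 filled points on the left are all below 0, and on the right 22 are above and 32 below 0, with Gpx3 at -6.45 and Dpep1 at 5.22 as the extremes.

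The difference between both effects, rmIl22 minus PBS less P24 minus P14, was tested for the 72 pathway genes measured in the fit of all 14 libraries. It was positive for 8 and negative for 10 (limma), where 17.3% and 6.51% of 15702 genes were called. Without rmIl22 library 2 it was positive for 13 and negative for 15. Scaled to the median gene it was positive for 8 and negative for 20, where 14.4% and 13.9% of all genes were called. Gpx3, Hpgds, Abcc2 and Hmox1 were far lower at P24 than at P14 and less so, or not called, in rmIl22 ileum than in PBS ileum, with differences of 5.15, 2.42, 2.22 and 2.04 (adjusted p from 1.26e-07 to 2.56e-04). Dpep1 and Anpep differed by -3.63 and -2.67 (adjusted p = 0.00482 and 0.0026). Dpep1 was at 590, 62.0 and 498 TPM in rmIl22 libraries and 75.1 to 105 TPM in PBS libraries, so rmIl22 library 2 was again the low one. Me1 fell in rmIl22 ileum and rose at P24, with a difference of -2.23 (adjusted p = 0.00103).

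The genes nearest in pattern to 3 members were found by the root mean square difference of log2(TPM + 1) over the 14 libraries, each gene centred on its own mean, among 15702 genes. Closest to Gsta2 were Nox4 (0.83), Marcksl1-ps4 (1.09) and Maob (1.10). Nox4, an NADPH oxidase, averaged 2.12 TPM in rmIl22 and 36.0 TPM in PBS ileum, and 0.314 TPM at P24 and 14.0 TPM at P14. Closest to Ggt1 were Slc10a2 (0.60), Akr1b7 (0.66) and Slc13a1 (0.68). Slc10a2, the bile acid transporter of the ileum, averaged 213 TPM in rmIl22 and 14.4 TPM in PBS ileum, and 806 TPM at P24 and 9.87 TPM at P14. Closest to Gpx2 were Gdpd1 (0.34), Ptk6 (0.35) and Cd38 (0.39). This likeness was taken over the same groups whose differences chose the members.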

How the data were processed

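Total RNA of whole ileum went into stranded libraries after removal of ribosomal RNA, per the labels' protocols. TPM were deposited by the authors per gene symbol and library, with tables of log2 fold changes and adjusted p-values for both comparisons, which hold no replicate values. Tools named in the submitters' processing notes are FastQC 0.11.2, DESeq2 1.14, HTSeq 0.6.1p1 and STAR 2.4.0f, with the mm10 genome. Their roles, the annotation and whether strand was used in counting were not given in the sources used here, and reads of near copies and of antisense partners are uncertain. TPM rests on the total of each library, so a few abundant genes can shift all others, and TPM scaled to the median gene was run beside it.

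The members, the gene lists and the tests were chosen with earlier results of these data known. Of 46882 entries, 27 with symbols turned into date numbers were left out (at most 0.0776% of a library's TPM). Whole reads (within 0.01) were recovered from the deposited TPM for 100% of 31189 genes with any value, and gave the depth. Columns of P14 and P24 libraries carry numbers other than the labels' replicate numbers and were assigned to a group only. Libraries are named by their column numbers. The labels call the replicates biological.

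Log2(TPM + 1) was fitted with limma 3.58.1 (R 4.3.3) with an intensity trend, each comparison on its own libraries, for genes with at least 1 TPM in at least 3 (rmIl22 against PBS) or 4 (P24 against P14) libraries. Tests were two-sided, with Benjamini-Hochberg adjustment over all genes and a threshold of 0.05. The difference of both effects was tested as a contrast with all 14 libraries in 1 fit (at least 1 TPM in at least 3). The code was tested on simulated data. Genes named besides the 10 members are up to 3 called genes per list, comparison and direction with the largest change, 6 IL-22 response genes, and the 3 genes nearest in pattern to Gsta2, Ggt1 and Gpx2. Gclm, Gm10639 and the chromosome 9 neighbours were added after their values were seen. The gene annotation was GENCODE on mm10, and promoters came from RefSeq. Alternatives were a pseudocount of 0.1, no filter, a filter at 5 TPM, median-scaled TPM, 1 fit of all libraries, limma voom on recovered reads, a replicate block, each library left out, and a term for Xist above 1 TPM, the last chosen after seeing the data.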

Additional observations from a re-analysis of the deposited data

Results flagged for a closer look

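In 3 groups of 4 libraries, 1 library of a member lay far from the others, as chance does in about 1 in 20 groups. Gsta3 was at 14.7 TPM in P14 library 1, Gstm1 at 31.2 TPM in P14 library 4 and Gstp1 at 296 TPM in P24 library 1.

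For 18 pathway genes, the difference between both effects (rmIl22 minus PBS, less P24 minus P14, log2) passed its test in limma. It was positive for Gpx3 (5.15), Hpgds (2.42), Abcc2 (2.22), Hmox1 (2.04), Cbr3 (1.36), Gstm4 (1.13), Oplah (1.04) and Gss (0.85). It was negative for Dpep1 (-3.63), Anpep (-2.67), Me1 (-2.23), Lap3 (-1.20), Acy1 (-1.05), Abcc3 (-1.04), Mgst3 (-0.99), Prdx1 (-0.74), Txn1 (-0.73) and Mgst2 (-0.72). The calls of Oplah, Acy1 and Abcc3 were lost without 1 library, Oplah without PBS library 2 or rmIl22 library 1, Acy1 without PBS library 2, and Abcc3 without PBS library 1 or 3 or rmIl22 library 3 (adjusted p from 0.0511 to 0.0725).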

How the results depend on the processing

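In P24 against P14, the counts of pathway genes that rose (19 to 26) and fell (22 to 32) stayed within 1.5 times the reported 22 and 32 under every alternative run. Of the 30 named calls, 25 held in every alternative in which the gene was tested (all 15, except 14 for Ggt5, which the filter at 5 TPM leaves out), and those of Cth, Slc3a2, Prdx6, Ggact and Nat8 were lost in at least 1. Of the 18 named calls in the difference between both effects, 15 held in all. In rmIl22 against PBS, none of the 7 named calls held in all. The number that fell was 2 with no filter, 13 in 1 fit of all 14 libraries, 2 with the Xist term and 0 to 12 with 1 library left out, and the number that rose was 0 to 2 with 1 library left out. Across all genes, 389 were called in this comparison, 312 by limma voom on recovered reads, 122 with the Xist term, 4 without PBS library 3, 12 without PBS library 1 and 1329 without rmIl22 library 2. Members called higher numbered 0 with no filter, 2 with the replicate block and 0 to 1 with 1 library left out (0 without PBS library 1, 2 or 3). Members called lower numbered 2 with no filter, 2 with median-scaled TPM, 2 with the Xist term and 1 to 4 with 1 library left out (1 without PBS library 3, and 2 without PBS library 1 or 2 or rmIl22 library 3). The difference between both effects was negative for 20 genes with median-scaled TPM, and positive for 7 to 13 with 1 library left out. The cause of these changes was not tested, apart from the smaller number of libraries or the larger number of genes that a setting itself brings.

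With the Xist term, rmIl22 against PBS rests on rmIl22 library 1 for its level, and the log2 fold changes of Gsta1, Gstm3, Gsta4, Gstm1 and Ggt1 were -0.11, -1.21, 1.21, 0.89 and 3.74. Over all alternatives, Gsta2 ranged from -6.66 to -5.16 in rmIl22 against PBS and from -7.33 to -4.40 in P24 against P14. Gsta2 could not be tested without any 1 of the P14 libraries, since 3 libraries are then left above the filter.

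Same-numbered rmIl22 and PBS libraries deviated from their group means with correlations of -0.07, 0.33 and -0.05. Differently numbered pairs ranged from -0.34 to 0.40. With 3 libraries per group these values cannot decide whether same-numbered libraries were paired. With the replicate block, 5 pathway genes fell and 0 rose. No paired analysis was possible for P24 against P14 because the columns do not carry the labels' replicate numbers. Depth limits Gsta2 at P24, with 2 to 3 reads per library.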

Other observations

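Some genes of the antioxidant list that the report does not name belong to the pentose phosphate pathway or work in the thioredoxin system. That pathway supplies NADPH, the reducing power that Gsr spends to recycle glutathione. These genes were picked out after their values were seen, from a list of 18 in which 9 rose and 6 fell at P24. At P24 against P14, G6pdx and Pgd, the dehydrogenases of the pentose phosphate pathway, rose by 0.67 and 0.65 on the log2 scale (adjusted p = 0.000596 and 0.004, limma). Transketolase (Tkt) rose by 0.71 (adjusted p = 0.000946) and thioredoxin reductase (Txnrd1) by 0.71 (adjusted p = 0.00162). For all 4 every P24 library was above every P14 library. Of all genes, 13.0% were so placed and 14.6% were called higher, and nothing is read from this count of picked genes. In rmIl22 against PBS, the log2 fold changes of the same genes were 0.23 for G6pdx, 0.01 for Pgd, 0.12 for Tkt and -0.01 for Txnrd1 (adjusted p from 0.486 to 0.992). The difference between both effects did not pass its test for any of the 4 (adjusted p from 0.0579 to 0.109). Me1 of the same list, by contrast, fell in rmIl22 ileum and rose at P24, as given above. Nfe2l2, the gene of NRF2 itself, averaged 56.2 ± 4.50 TPM in P24 ileum and 59.7 ± 9.90 TPM in P14 ileum (SD, n = 4 each, adjusted p = 0.617).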
